A study of Gallus gallus with 24 samples.

Results

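HOX genes encode homeodomain transcription factors that give cells of the vertebrate body their position along the head-to-tail axis and along the limbs. They lie in the 4 clusters HOXA, HOXB, HOXC and HOXD, and a low paralogue number marks genes used towards the head, a high number genes used towards the tail and the tips of the limbs. Cultured human fibroblasts keep a HOX pattern that reflects the body site they came from. The genes described here were all rows of the count tables whose symbol was HOXA, HOXB, HOXC or HOXD followed by a number, which gave 35 of 25466 genes: 11 in HOXA, 9 in HOXB, 6 in HOXC (paralogues 8 to 13) and 9 in HOXD. All 35 symbols were found in the RefSeq gene table of the chicken assembly GRCg7b.

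The cells were DF1, a spontaneously immortalised line of chicken embryo fibroblasts, sequenced as poly(A)-enriched, directional RNA libraries. IRF9 knockdown cells and mock cells, which the labels give the genotype wild type, received poly(I:C), an artificial RNA duplex that cells sense as viral. Each genotype was collected at 0 h, 30 min, 1 h and 6 h with 3 replicates, which gave 8 groups and 24 libraries. All libraries come from the same line in culture, and the sources used here do not state how the knockdown was made. No libraries of cells kept for 6 h without poly(I:C) were analysed here, so stimulation and time in culture cannot be told apart.

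Counts assigned to genes ranged from 12174030 to 19974065 per library, and 3 counts corresponded to 0.150 to 0.259 CPM, counts scaled to library size. IRF9 of knockdown cells averaged 64.5% of the mock level at 0 h, 46.2% at 30 min, 56.8% at 1 h and 66.1% at 6 h; 3 against 3 libraries allow no exact permutation p (two-sided) below 0.1, and each time gave 0.1. Averaged over the times, IRF9 fell by 0.79 on the log2 scale (SE 0.09, edgeR quasi-likelihood adjusted p = 7.67e-05, 12 against 12 libraries). The 4 libraries of mock replicate 2 stood apart from all others, at 23.7 to 34.0 on the first principal component of all genes tested, against -15.2 to 6.48 for the other 20. Of 15 fibroblast markers, 14 reached 1 CPM, led by FN1, VIM and COL1A1 at 2315, 1708 and 1072 CPM, and none of 6 skeletal muscle markers did. In the neural list 2 of 7 reached 1 CPM, TUBB3 at 299 CPM and NEFL at 4.51 CPM. The others were at the floor: ELAVL4, SOX2 and NEFM at 0.0205, 0.0133 and 0.00272 CPM, and SNAP25 and STMN2 at 0.

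DF1 cells carried a HOX programme built from the HOXA, HOXB and HOXC clusters, with HOXD at the floor. With a mean of at least 1 CPM over the 24 libraries taken as expressed, 14 of the 35 genes were expressed: 8 of HOXA, 3 of HOXB, 3 of HOXC and none of HOXD. Another 3 genes, HOXB5, HOXC8 and HOXC11, averaged 0.548, 0.750 and 0.377 CPM. The other 18 averaged at most 0.240 CPM, and 10 of these had 0 counts in every library. A count of 0 over all libraries allows a level of up to 0.00807 CPM, a limit that covers counting error only. HOX genes took 3113 to 6106 counts per library (median 4273).

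**Figure D1:**
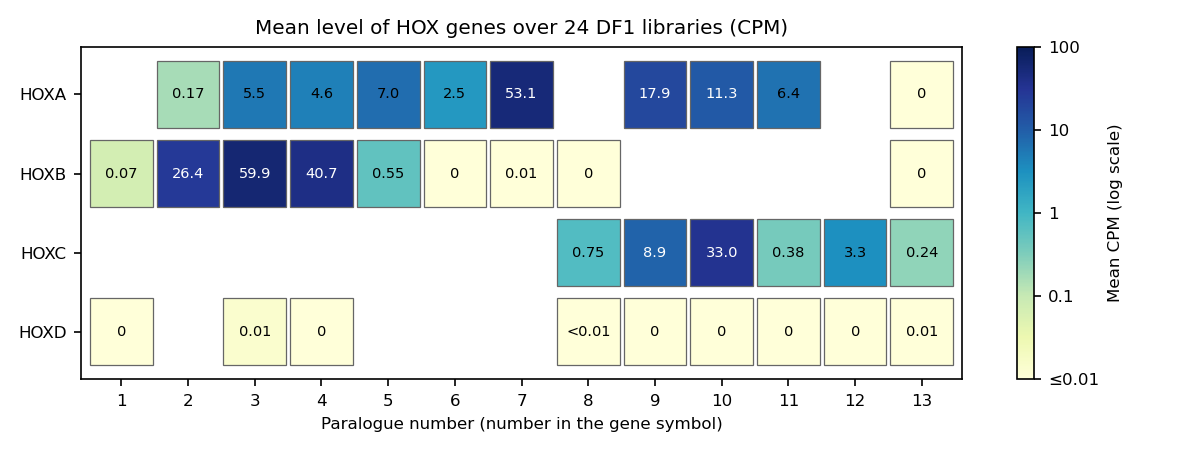
Mean level of the HOX genes named in the text over the 24 libraries, in CPM on a log colour scale, with the clusters as rows and the paralogue number as columns. Means of at least 1 CPM lie in HOXA from paralogue 3 to 11, in HOXB from 2 to 4 and in HOXC at 9, 10 and 12. The whole HOXD row is at the floor. Blank columns, such as HOXA8, had no row in the count tables or are not shown.

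The HOXA cluster (GRCg7b chromosome 2, 32479290 to 32585457) was expressed as an unbroken run of the genes present from HOXA3 to HOXA11. The count tables held no HOXA8. HOXA7 averaged 53.1 CPM, HOXA9 17.9 CPM, HOXA10 11.3 CPM, HOXA5 7.03 CPM and HOXA11 6.45 CPM. HOXA3, HOXA4 and HOXA6 averaged 5.54, 4.57 and 2.53 CPM. The run stopped at both ends of the cluster. Towards the head end HOXA2, which patterns the second branchial arch, had 63 counts spread over 18 libraries. At the tail end HOXA13, a gene of the developing digits and genital tubercle, had 0 counts.

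The HOXB cluster (chromosome 27, 3350868 to 3490154) was expressed at its head end. HOXB3 averaged 59.9 CPM with a range over libraries of 51.5 to 71.3 CPM, HOXB4 averaged 40.7 CPM with a range of 26.7 to 58.3 CPM, and HOXB2, a hindbrain gene, averaged 26.4 CPM with a range of 18.0 to 33.6 CPM. HOXB1 had 25 counts over all libraries and HOXB7 had 3. HOXB6, HOXB8 and HOXB13 had none. The count tables held no HOXB9. The protein-coding gene LOC107055286, which lies between HOXB8 and HOXB13, had 0 counts. The counts of the middle genes of the 2 clusters thus differed: HOXA7 was expressed in every library, while its paralogue HOXB7 was at the floor. Most of the HOXB7 span overlaps that of a non-coding gene, and the effect of this overlap on its counts was not tested.

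Of the HOXC cluster (chromosome 34, 831513 to 909510) the count tables held only HOXC8 to HOXC13. Genes of its head end had no row, so their expression could not be seen. HOXC10 averaged 33.0 CPM, HOXC9 8.93 CPM and HOXC12 3.25 CPM, while HOXC11, which lies between HOXC10 and HOXC12 in the cluster, averaged 0.377 CPM and ranged from 0 to 1.37 CPM. HOXC13, known in mice for its part in hair and nail formation, had 89 counts over the 24 libraries and averaged 0.240 CPM. The HOXD cluster (chromosome 7, 15875779 to 15949931) had 10 counts in all libraries together: 5 in HOXD3, 2 in HOXD8 and 3 in HOXD13, with HOXD1, HOXD4, HOXD9, HOXD10, HOXD11 and HOXD12 at 0. The paralogue 13 genes HOXA13, HOXB13, HOXC13 and HOXD13 were thus all below 1 CPM on average. Among the genes with a row, the highest paralogue number expressed was 12 in HOXC, 11 in HOXA and 4 in HOXB.

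Gene length and shared reads limit comparisons of level between HOX genes. No transcript lengths were used here, so levels per length could be set side by side only for the 8 expressed genes with a span, introns included, under 5 kb. HOXB4 and HOXA7 had 13.4 and 12.4 CPM per kb of span, HOXB2 8.97 and HOXC10 6.92, HOXC9 2.99, HOXA5 2.76, HOXA4 2.02 and HOXC12 0.810. The ranges over the 24 libraries overlapped between each neighbouring pair in this order. In the annotation 19 of the 35 genes, and 11 of the 14 expressed ones, overlapped the span of another gene. HOXB3 has a span of 59819 bases that starts at the same base, 3412953, as HOXB5 and HOXB6 and also contains HOXB4. HOXA3 has a span of 45943 bases that contains HOXA4, HOXA5 and HOXA6 and ends at the same base, 32536067, as HOXA6. HOXA10 lies inside the span of HOXA9, and both end at base 32564089. Reads that fit more than 1 gene, 1.18% to 1.33% of each library, were not counted for any. The span of HOXB7, 4068 bases, shares 3984 bases with that of the non-coding gene LOC124417424. The part of uncounted reads in the levels of these genes, the low values of HOXB5, HOXB6 and HOXB7 among them, was not tested. HOXB8 and HOXB13 overlap no other span.

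Replicates of a group differed in these genes by a moderate amount. The within-group coefficient of variation of the 14 expressed genes ran from 8.37% for HOXA7 to 31.7% for HOXA4, with a median of 18.8%. Mock replicate 2, which stood apart over all genes, was separate in no larger a share of HOX genes than of all genes. Its 4 libraries had 18.9, 20.5, 18.0 and 19.8 CPM of HOXB2 at 0 h, 30 min, 1 h and 6 h, against 21.1 to 33.6 CPM in the 12 knockdown libraries and 25.1 to 32.2 CPM in the 8 libraries of mock replicates 1 and 3. These 4 lay below all other 20 libraries, and HOXB2 was the 1 of 14 expressed HOX genes for which this held; 9.69% of the 13000 genes tested lay above or below all others. HOXA7 also lay below the other 8 mock libraries, at 46.3 to 49.6 CPM against 50.0 to 62.1 CPM, so 2 of 14 were separate there, beside 15.2% of all genes.

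The remaining differences of mock replicate 2 overlapped the other libraries. Its mean was 0.606 of that of the other mock libraries for HOXA3, 0.574 for HOXA4, 0.719 for HOXA9 and 0.723 for HOXA5. HOXB4 went the other way at 1.33, with 39.4 to 58.3 CPM in the 4 libraries, and HOXB3 and HOXC10 were near the others at 1.06 and 0.941. These are descriptions with no test, since the replicate was set apart on its values.

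**Figure D2:**
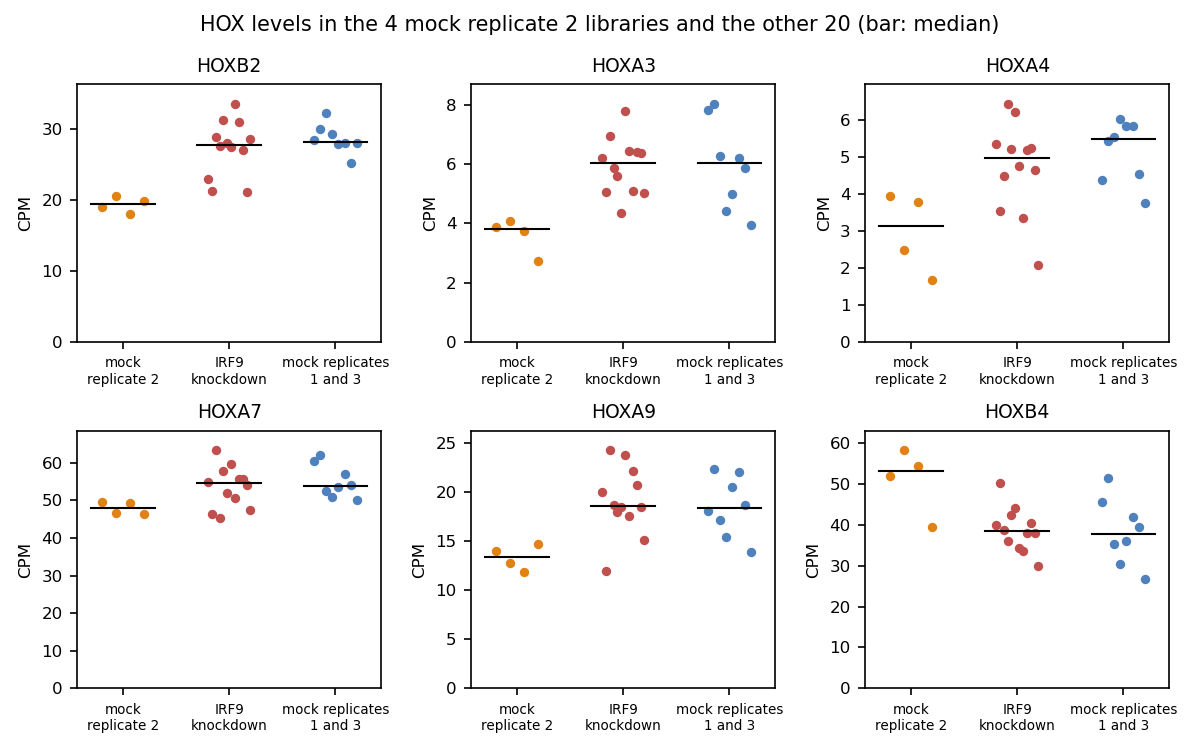
Level of 6 HOX genes in CPM, 1 point a library, in mock replicate 2 (4 libraries), knockdown (12) and mock replicates 1 and 3 (8); bars are medians. The HOXB2 points of mock replicate 2 lie between 18.0 and 20.5 CPM, below every other library, while its HOXB4 points lie between 39.4 and 58.3 CPM and overlap the others.

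Whether the HOX pattern changed after poly(I:C) was asked by comparing 6 h with 0 h, averaged over the genotypes, with 6 against 6 libraries. HOXC10 fell, and the other expressed HOX genes had estimates that were mostly below 0 and did not pass the test. A further fit took the replicate number as a block within each genotype, although same-numbered libraries deviated together in mock cells alone. There edgeR called 6 HOX genes, all lower: HOXC10, HOXB4, HOXC9, HOXA11, HOXA10 and HOXA7. The same fit called 1492 of all 13000 genes tested, 595 of them lower. HOXC10 is a tail-end gene which, with HOXA10 and HOXD10, suppresses rib formation in the lumbar vertebrae of mice. In knockdown cells it stood at 25.3, 25.1 and 20.9 CPM at 6 h, against 37.6, 33.2 and 35.4 CPM at 0 h. In mock cells it stood at 21.7, 21.2 and 29.1 CPM at 6 h, against 38.6, 32.5 and 31.0 CPM at 0 h. All 6 libraries of 6 h were below all 6 of 0 h, in both genotypes, and mock replicate 3 at 6 h was the highest of them.

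The HOXC10 mean was 23.9 ± 3.21 CPM at 6 h and 34.7 ± 2.99 CPM at 0 h (SD, n = 6 each), a log2 change of -0.54 (SE 0.10, edgeR quasi-likelihood adjusted p = 0.000919 over 13000 genes). It was the 1 of 17 HOX genes that passed the low-count filter to be called, lower, beside 5.05% of all genes tested that were called and 1.35% that were called lower. The HOXC10 call held in all 31 alternative settings, in which the log2 change lay between -0.62 and -0.49. Its means at 30 min and 1 h were near that at 0 h: in knockdown cells the means were 35.4 ± 2.22, 37.2 ± 5.00, 38.8 ± 3.09 and 23.8 ± 2.47 CPM at 0 h, 30 min, 1 h and 6 h, and in mock cells 34.0 ± 4.01, 35.2 ± 4.79, 35.6 ± 3.96 and 23.99 ± 4.42 CPM (SD, n = 3 each).

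**Figure D3:**
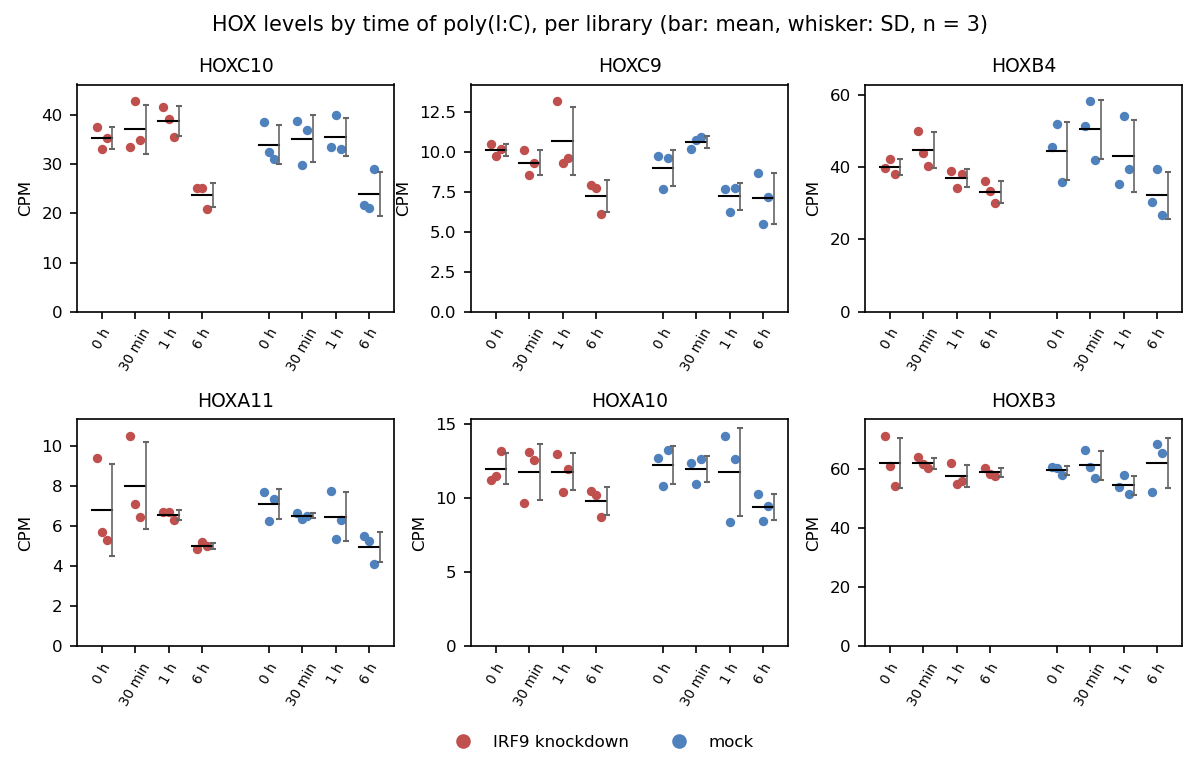
Level of 6 HOX genes in CPM in each library at 0 h, 30 min, 1 h and 6 h, knockdown left of mock; bars are means and whiskers SD of 3 libraries. HOXC10 keeps means of 34.0 to 38.8 CPM up to 1 h and has means of 23.8 CPM in knockdown and 23.99 CPM in mock cells at 6 h. HOXB3 has means of 59.0 CPM in knockdown and 62.2 CPM in mock cells at 6 h, against 62.3 and 59.7 CPM at 0 h.

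Within each genotype the HOXC10 estimates were close and the calls were not firm. In knockdown cells the log2 change at 6 h was -0.58 (SE 0.14, edgeR adjusted p = 0.0311, n = 3 each), 1 of 17 HOX genes called beside 1.72% of all genes. That call was lost when any 1 of the 6 knockdown libraries at 0 h or 6 h was left out (adjusted p from 0.0597 to 0.201). In mock cells the log2 change was -0.50 (SE 0.14, edgeR adjusted p = 0.0651, n = 3 each), and 0 of 17 HOX genes were called beside 2.17% of all genes. With the replicate number as a block within each genotype, edgeR called HOXC10 (adjusted p = 0.0167) and HOXB4 (adjusted p = 0.00276) in mock cells. That fit called 699 of all 13000 genes tested. DESeq2 called HOXC10 in mock cells (adjusted p = 0.0243), beside 382 of 12860 genes. At an unadjusted p under 0.05 by edgeR, 6 HOX genes were lower in mock cells, beside 3.42% of all genes, and 3 in knockdown cells, beside 4.18%. The difference between the genotypes in the HOXC10 change was -0.07 (SE 0.20).

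The next genes by size of test were other tail-end genes and HOXB4. HOXC9, a gene of the thoracic trunk in mice, stood at 7.93, 7.76 and 6.09 CPM at 6 h in knockdown cells, against 10.5, 9.76 and 10.2 CPM at 0 h, and at 8.67, 5.48 and 7.18 CPM in mock cells, against 9.75, 7.72 and 9.61 CPM. The knockdown libraries did not overlap and the mock libraries did. The log2 change was -0.42 (SE 0.13, edgeR adjusted p = 0.0533, n = 6 each), and with the replicate block within each genotype it was called (edgeR adjusted p = 0.0135). HOXC9 was also called by DESeq2 (adjusted p = 0.0261) and with RLE scaling (edgeR adjusted p = 0.0485). In all it was called in 8 of the 31 alternative settings.

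HOXB4, best known for its part in blood stem cells of mice and humans, stood at 36.1, 33.6 and 30.0 CPM at 6 h in knockdown cells, against 39.8, 42.3 and 38.0 CPM at 0 h. In mock cells it stood at 30.4, 39.4 and 26.7 CPM at 6 h, against 45.6, 52.1 and 36.0 CPM at 0 h. Each mock library at 6 h was below the library of the same number at 0 h, but the groups overlapped, with replicate 2 the highest at both times. The log2 change was -0.37 (SE 0.12, edgeR adjusted p = 0.0685, n = 6 each), and without the 4 mock replicate 2 libraries it was called (-0.39, edgeR adjusted p = 0.00917), as it was with the replicate block within each genotype (edgeR adjusted p = 0.000414). HOXB4 was called in 9 of the 31 alternative settings.

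HOXA11 and HOXA10, which take part with their paralogues in patterning the forelimb and the lumbar spine in mice, had no overlap between 6 h and 0 h in either genotype. HOXA11 stood at 4.89, 5.20 and 5.00 CPM at 6 h in knockdown cells against 9.44, 5.71 and 5.31 CPM at 0 h, and at 5.54, 5.26 and 4.13 CPM in mock cells against 7.74, 6.28 and 7.36 CPM. HOXA10 stood at 10.5, 10.2 and 8.74 CPM at 6 h in knockdown cells against 11.3, 11.5 and 13.2 CPM at 0 h, and at 10.3, 8.47 and 9.46 CPM in mock cells against 12.7, 10.8 and 13.3 CPM. With all libraries and no block neither passed the edgeR test, with log2 changes of -0.48 (SE 0.15, adjusted p = 0.0773) and -0.34 (SE 0.12, adjusted p = 0.128), n = 6 each. With the replicate block within each genotype both were called (edgeR adjusted p = 0.0308 and 0.0450). Of the 31 alternative settings, HOXA11 was called in 3 and HOXA10 in 1. With HOXC10 they were the 3 of 17 HOX genes whose 6 h libraries lay below the 0 h libraries in both genotypes, beside 2.01% of all genes, and none lay above in both, beside 4.31%.

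HOXC12 averaged 2.41 ± 0.726 CPM at 6 h and 3.58 ± 0.334 CPM at 0 h (SD, n = 6 each; log2 change -0.57, SE 0.21, edgeR adjusted p = 0.138). HOXA7 averaged 48.4 ± 2.39 CPM at 6 h and 55.3 ± 3.69 CPM at 0 h (log2 change -0.19, SE 0.08, edgeR adjusted p = 0.178, or 0.0496 with the replicate block within each genotype, n = 6 each). Unlike HOXB4, the neighbouring genes HOXB3 and HOXB2 had close means at both times: HOXB3 60.6 ± 5.78 CPM at 6 h and 61.0 ± 5.62 CPM at 0 h, and HOXB2 27.8 ± 4.49 CPM at 6 h and 26.7 ± 4.84 CPM at 0 h (SD, n = 6 each). HOXB3 differed by -0.01 and HOXB2 by 0.06 on the log2 scale. HOXA5, a regulator of lung development in mice, differed by -0.07, HOXA9 by -0.24, HOXA3 by -0.28, HOXA4 by -0.38 and HOXA6 by -0.46, none with an edgeR adjusted p below 0.358 (n = 6 each). The 3 low genes averaged under 1 CPM at both times, with HOXB5 at 0.293 ± 0.206 and 0.671 ± 0.247 CPM, HOXC8 at 0.641 ± 0.444 and 0.775 ± 0.363 CPM, and HOXC11 at 0.134 ± 0.119 and 0.322 ± 0.181 CPM at 6 h and 0 h (SD, n = 6 each). Their log2 changes were -1.20 (SE 0.52, edgeR adjusted p = 0.234), -0.31 (SE 0.46, edgeR adjusted p = 0.837) and -1.22 (SE 0.66, edgeR adjusted p = 0.387).

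Among the 14 expressed HOX genes 13 had estimates below 0 at 6 h, with a median log2 change of -0.35 and a range of -0.57 to 0.06. Over all genes tested the median was 0.0003 and 49.9% were below 0. At an unadjusted p under 0.05, 8 of the 17 HOX genes tested were lower, beside 6.61% of all genes, and none was higher, beside 9.58%. Genes of a cluster come from the same libraries and are not independent replicates of the change.

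**Figure D4:**
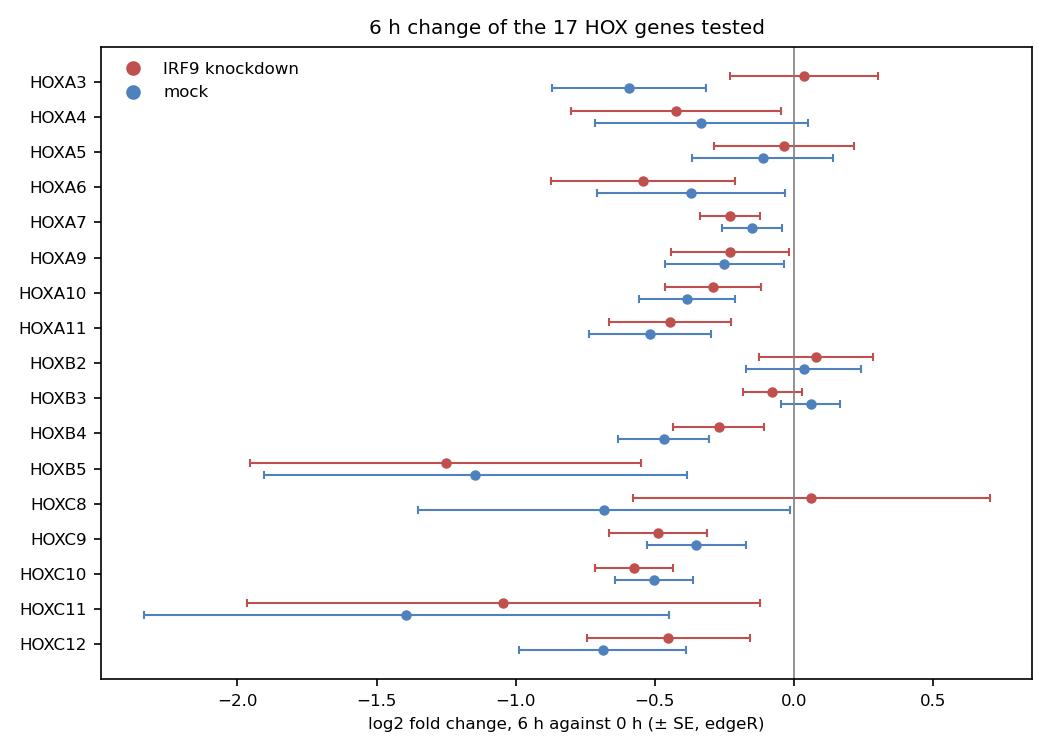
Log2 change at 6 h against 0 h for the 17 HOX genes tested, knockdown above mock, with whiskers of 1 SE from the edgeR fit. Most points lie left of 0, HOXC10 at -0.58 in knockdown and -0.50 in mock cells, and the wide whiskers of HOXB5, HOXC8 and HOXC11 go with their low counts.

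Markers of other cell types were checked beside the 6 h comparison. The summed endothelial markers were 3.87 to 5.76 CPM at 6 h and 2.07 to 3.25 CPM at 0 h, with 1 of 5, PECAM1, at 1 CPM or more, VWF at 0.575 CPM and CDH5, KDR and TEK at 0.246, 0.102 and 0.0105 CPM. The summed blood markers were 3.22 to 4.60 CPM at 6 h and 1.74 to 3.18 CPM at 0 h, with 1 of 5, PTPRC, at 1.78 CPM, CSF1R at 0.856 CPM and SPI1, HBA1 and HBBA at or near 0. Their part in the HOXC10 result was not tested. Fibroblast marker sums overlapped (5583 to 7350 CPM at 6 h and 6285 to 7416 CPM at 0 h), as did the epithelial sums (1.18 to 2.36 and 0.745 to 2.52 CPM) and the neural sums (222 to 344 and 276 to 333 CPM).

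VWF averaged 0.867 ± 0.261 CPM at 6 h and 0.423 ± 0.206 CPM at 0 h, and CSF1R 1.24 ± 0.520 CPM at 6 h and 0.808 ± 0.270 CPM at 0 h (SD, n = 6 each), and neither passed the edgeR test (log2 change 1.00, adjusted p = 0.338, and 0.63, adjusted p = 0.412). PECAM1 rose at 6 h by 0.96 on the log2 scale (SE 0.26, edgeR adjusted p = 0.0249, n = 6 each), and the call was lost without the 4 mock replicate 2 libraries (adjusted p = 0.139) and without any 1 of 7 libraries. COL5A1 of the fibroblast list fell by 0.57 (SE 0.17, edgeR adjusted p = 0.0440, n = 6 each), a call lost without any 1 of 14 libraries: each replicate 1 library but mock 1 h, knockdown replicate 2 at every time, mock replicate 2 at 0 h, and replicate 3 of both genotypes at 6 h. The libraries whose removal ended the PECAM1 call were the first 2 knockdown replicates and the first 2 mock replicates at 0 h, knockdown replicates 1 and 3 at 6 h and mock replicate 2 at 6 h.

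No HOX change was detected at the earlier times. At 30 min against 0 h, edgeR called 0 of 17 HOX genes, beside 0% of all genes, and DESeq2 called 0. None was under an unadjusted p of 0.05, beside 1.3% of all genes. At 1 h against 0 h, edgeR called 0 of 17, beside 0.0462% of all genes, and DESeq2 called 0. None was under an unadjusted p of 0.05, beside 3.4% of all genes. HOXC10 had estimates of 0.06 at 30 min and 0.10 at 1 h on the log2 scale.

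Knockdown of IRF9, a component of the interferon-activated ISGF3 transcription factor, gave no called HOX difference. Averaged over the 4 times, edgeR called 0 of 17 HOX genes, beside 0.00769% of all genes, and DESeq2 called 0. None had an unadjusted p under 0.05, beside 10.8% of all genes. The 14 expressed genes had log2 differences between -0.13 and 0.22 with a median of 0.08, against -0.007 over all genes tested, and 12 of them were above 0. Without the 4 libraries of mock replicate 2 the median was 0.03. At each single time edgeR and DESeq2 also called 0 of 17, beside 0% of all genes by edgeR at 0 h, 1 h and 6 h and 0.00769% at 30 min. DESeq2 called 31 of 10097 genes at 30 min and 4 of 20360 at 6 h. By edgeR the targeted gene IRF9 was called at 30 min (adjusted p = 0.0316). It was not called at 0 h, 1 h or 6 h (edgeR adjusted p = 0.997, 0.975 and 0.777), so 0 calls at those times say little.

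The single times held 4 differences at an unadjusted p under 0.05, all higher in knockdown cells. At 1 h HOXC9 stood at 13.2, 9.34 and 9.61 CPM in knockdown cells and 7.70, 6.27 and 7.73 CPM in mock cells, with no overlap (log2 difference 0.56, SE 0.18, edgeR adjusted p = 1.00, n = 3 each). HOXA5 stood at 8.47, 7.38 and 11.5 CPM in knockdown cells and 6.84, 5.81 and 5.80 CPM in mock cells at 1 h, also without overlap (0.57, SE 0.25, edgeR adjusted p = 1.00). HOXA9 stood at 24.2, 23.7 and 18.5 CPM in knockdown cells and 17.1, 11.8 and 18.7 CPM in mock cells, where the lowest knockdown and the highest mock library crossed (0.48, SE 0.21, edgeR adjusted p = 1.00). These were 3 of 17 HOX genes, beside 1.11% of all genes that were higher at that threshold. How many of all genes had no overlap between knockdown and mock cells at 1 h was not counted, so the lack of overlap is description only.

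At 6 h HOXA3, needed for the thymus and parathyroid in mice, stood at 5.88, 6.45 and 5.00 CPM in knockdown cells and 4.41, 2.71 and 3.94 CPM in mock cells. The groups did not overlap, and mock replicate 2 was the lowest (log2 difference 0.66, SE 0.28, edgeR adjusted p = 0.777, n = 3 each). This was 1 of 17 at an unadjusted p under 0.05 by edgeR, beside 2.23% of all genes that were higher at that threshold. The share of all genes without overlap between the genotypes at 6 h was not counted either. Without the 4 mock replicate 2 libraries the difference was 0.46. No HOX gene was under an unadjusted p of 0.05 at 0 h, beside 1.51% of all genes, or at 30 min, beside 13.3%.

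Whether the 6 h change differed between knockdown and mock cells was tested as an interaction. EdgeR and DESeq2 called 0 of 17 HOX genes, beside 0% of all genes, and 0 HOX genes had an unadjusted p under 0.05, beside 1.57% of all genes. HOXA3 had the highest estimate among the expressed genes, 0.63 (SE 0.38), from log2 changes of 0.04 in knockdown and -0.59 in mock cells. Without mock replicate 1 at 0 h, the highest mock library there, the mock change was -0.27 and the change averaged over genotypes was -0.12, against -0.28 with all libraries.

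HOX proteins bind DNA with some of the homeodomain proteins of the TALE class. Of this class, DF1 cells expressed TGIF1, PKNOX1 and MEIS1 at averages of 126, 37.6 and 35.2 CPM. A list of HOX cluster regulators held 32 tested genes, mainly Polycomb and trithorax proteins, which hold the clusters silent or active. The highest were the cohesin subunit RAD21 at 371 CPM, the Polycomb subunit RBBP4 at 322 CPM, and the trithorax-related KMT2D and KMT2A at 230 and 180 CPM. Counts at 6 h are to be read beside the 5.05% of all genes called by edgeR and the 16.2% with an unadjusted p under 0.05. Those by DESeq2 stand beside 865 of 12465 genes called. At 6 h edgeR called 0 of 9 TALE genes (1 at an unadjusted p under 0.05, 0 by DESeq2; median log2 change -0.14). It called 0 of the 32 cluster regulators, beside the same shares (4 at an unadjusted p under 0.05; DESeq2 called 2, KMT2A and PCGF5; median -0.008).

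Retinoic acid and CDX factors set HOX expression in embryos. Of the retinoid pathway 10 genes were tested, with RARA, RXRA, DHRS3 and ALDH1A1 at 97.5, 28.8, 19.99 and 9.40 CPM. EdgeR called 0 of them at 6 h, beside 5.05% of all genes, and the median log2 change was -0.24. At an unadjusted p under 0.05 by edgeR there were 4, beside 16.2%. DESeq2 called DHRS3 and RXRA, beside 865 of 12465 genes. The 5 CDX and ParaHOX genes were all at most 0.03 CPM and none was tested. Of a list of genes flanking the clusters 12 were tested, with CALCOCO2, ATF2, MTX2 and CBX5 at 118, 82.1, 71.0 and 70.9 CPM. The list included TTLL6, which lies on chromosome 10 in GRCg7b and so beside no HOX cluster. EdgeR called 0 of the 12 at 6 h, beside 5.05% of all genes (0 by DESeq2, median -0.04). At an unadjusted p under 0.05 by edgeR there were 3, beside 16.2%. The cluster-end genes EVX1 and EVX2 were at or near 0.

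Some positional transcription factors outside the HOX clusters changed at 6 h. Of 25 limb and trunk mesenchyme factors tested, edgeR called 4 higher and 1 lower, beside 3.7% of all genes called higher and 1.35% called lower, and the median log2 change was 0.04. DESeq2 called 5 higher, NR2F2 added, and 1 lower, beside 865 of 12465 genes called in all, 291 of them lower. Of 8 head and cranial factors tested, edgeR and DESeq2 each called 1 lower and none higher, beside the same edgeR shares of all genes, with a median of -0.23. TBX3, a T-box repressor of limb and heart development, stood at 94.9, 91.3 and 87.6 CPM at 6 h in knockdown cells against 47.6, 49.9 and 52.0 CPM at 0 h. In mock cells it stood at 100.1, 94.6 and 98.0 CPM at 6 h against 50.0, 42.7 and 50.3 CPM at 0 h. The groups were far apart in both genotypes (log2 change 0.95, SE 0.07, edgeR adjusted p = 3.47e-10, n = 6 each).

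The other limb and trunk factors that rose did so by less. MSX2 averaged 46.2 ± 1.53 CPM at 6 h and 35.8 ± 2.32 CPM at 0 h (log2 change 0.37, edgeR adjusted p = 0.000885). FOXC2, a forkhead factor of trunk mesoderm, averaged 50.0 ± 4.39 CPM at 6 h and 36.6 ± 3.60 CPM at 0 h (0.45, edgeR adjusted p = 0.0153). GATA6 averaged 132 ± 9.57 CPM at 6 h and 100.2 ± 9.49 CPM at 0 h (0.40, edgeR adjusted p = 0.00269; SD, n = 6 each).

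IRX1 and ALX4 fell at 6 h. IRX1, an Iroquois homeobox factor, stood at 5.24, 3.29 and 3.51 CPM at 6 h in knockdown cells against 7.12, 8.85 and 7.32 CPM at 0 h, and at 3.61, 5.04 and 5.53 CPM in mock cells against 11.1, 11.2 and 8.68 CPM (log2 change -1.04, SE 0.17, edgeR adjusted p = 0.000276, n = 6 each). ALX4, an aristaless-like homeobox factor of the limb and skull, averaged 45.4 ± 5.10 CPM at 6 h and 64.4 ± 10.7 CPM at 0 h (-0.50, SE 0.12, edgeR adjusted p = 0.00940, n = 6 each). These 6 calls held in all 31 alternative settings. The factors of highest level in the limb and trunk list were TWIST2, PRRX1, IRX5 and GATA6 at 268, 233, 123 and 108 CPM over all libraries, and PITX1, known for hindlimb identity, stood at 25.7 CPM, while TBX4 and TBX5, the hindlimb and forelimb T-box genes, stood at 0.03 and 0 CPM. In the head list the highest were ALX4, LHX2, HESX1 and FOXD1 at 59.4, 13.9, 5.96 and 5.44 CPM.

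**Figure D5:**
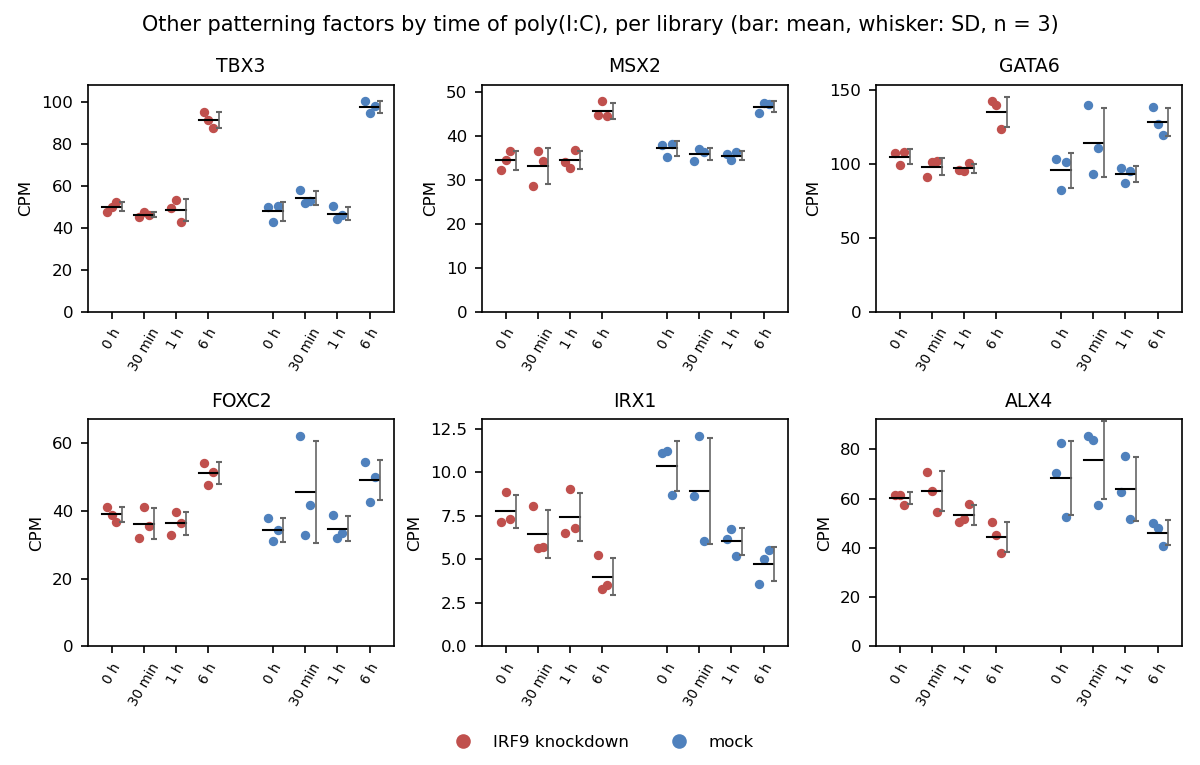
Level of TBX3, MSX2, GATA6, FOXC2, IRX1 and ALX4 in CPM in each library at 0 h, 30 min, 1 h and 6 h, knockdown left of mock; bars are means and whiskers SD of 3 libraries. TBX3 separates most clearly, with 6 h libraries between 87.6 and 100.1 CPM and 0 h libraries between 42.7 and 52.0 CPM.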

How the data were processed

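RNA from 24 samples of DF1 cells was made into directional, poly(A)-enriched libraries, per the labels. The authors deposited raw read counts per gene for each library. The build was GRCg7b and the tools STAR 2.7.11b, HTSeq 2.0.5, Trim Galore 0.6.10, edgeR 3.40.2 and FastQC 0.12.1, per the submitters' processing notes. The sources used here do not give the strand setting or annotation release. Rows naming no gene were left out: reads in no feature were 14.6% to 18.8% of a library and reads with several alignments 3.43% to 4.25%.

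Here edgeR 4.0.16 in R 4.3.3 (filterByExpr, TMM scaling, quasi-likelihood test on 8 group means, Benjamini-Hochberg over the 13000 genes kept, called at an adjusted p under 0.05) was run on all 24 libraries, with DESeq2 1.42.0 as an alternative. The script was tested on simulated data. CPM used TMM library sizes. Genes were called expressed at a mean of 1 CPM. The alternatives were RLE scaling, no filter, DESeq2, only the groups compared, leaving out mock replicate 2 or each library, and the replicate number as a block. Expressed HOX genes were also counted at a lower and a higher CPM cut-off. Same-numbered libraries of different times deviated together from their group means in mock cells (correlations of 0.229 to 0.554). They did not do so throughout in knockdown cells (0.00255 to 0.210) or between genotypes (-0.189 to 0.202). Mock replicate 2 stood apart at every time, which alone moves the other mock replicates the same way around the group mean. The correlations therefore cannot show whether the other numbers pair libraries, and calls with a block rest on an assumed pairing. Replicates differed beyond counting noise (chi-square per degree of freedom 3.11 to 56.9), so none was a repeat deposit. The labels do not say that replicates were separate cultures on separate days. The p-values set group differences against the spread of these samples within groups, which can be technical variation. If it is, they are too small for a statement about separate cultures. The HOX genes, the cofactor, regulator, retinoid, CDX, flanking, limb and trunk, head and marker lists, and the alternatives were chosen with earlier results of these data known. Named were the HOX genes and, of each list, called members and the 4 of highest level, except 2 genes whose values are not reported here; other list members were named after their values were seen.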

Additional observations from a re-analysis of the deposited data

How the results depend on the processing

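The IRF9 difference averaged over the times kept its side of the threshold under every alternative run. The number of expressed HOX genes rose with a lower CPM cut-off, which took in HOXB5 and HOXC8 at 0.548 and 0.750 CPM. The lowest of the 14 expressed genes was HOXA6 at 2.53 CPM. HOX genes called at 6 h against 0 h averaged over genotypes, 1 as reported, were 2 with RLE scaling, without a filter, without the 4 mock replicate 2 libraries and with only the groups compared, 3 with DESeq2, 4 with the replicate block shared by all groups, 6 with the replicate block within each genotype (HOXA7, HOXA10, HOXA11, HOXB4, HOXC9 and HOXC10, all lower) and 1 to 3 without single libraries (3 without mock replicate 2 at 1 h). In mock cells alone, 0 as reported, they were 1 with DESeq2, 2 with the replicate block within each genotype and 0 to 1 without single libraries (1 without mock replicate 2 at 30 min or replicate 3 at 6 h). In knockdown cells alone, 1 as reported, they were 0 to 1 without single libraries. The cause was not tested. Under the block within each genotype 1492 genes were called in all at 6 h, against 656 as reported, and with the shared block 943. DESeq2 called 865 of 12465 genes in all. EdgeR called 644 of 13000 with RLE scaling and 709 of 20360 without a filter. It called 685 of 13179 without the 4 mock replicate 2 libraries and 801 of 12651 with only the groups compared. Without mock replicate 2 at 1 h it called 675 of 13278. In mock cells alone the block within each genotype called 699 genes, against 282 as reported. DESeq2 called 382 of 12860 there. Leaving out mock replicate 2 at 30 min gave 304 of 13278, and leaving out mock replicate 3 at 6 h gave 238 of 13263. In knockdown cells alone edgeR called 224 genes as reported. It called 843 of 12238 there with only the groups compared and 656 of 13000 with the block within each genotype, and DESeq2 called 316 of 12860. HOXC10 was the only HOX gene called in each. Fits without 1 knockdown library of 0 h or 6 h, where HOXC10 was lost, called from 120 of 13293 to 150 of 13276. The blocks changed no HOX call at 30 min or 1 h or between genotypes, where 0 HOX genes were called under every alternative. Between genotypes at 30 min, edgeR called 741 of 13291 genes without mock replicate 3 at 30 min and 195 of 20360 without a filter. DESeq2 called 31 of 10097 there. Averaged over the times, edgeR called 26 of 20360 between genotypes without a filter. At 1 h against 0 h it called 18 of 13000 with the block within each genotype. The within-genotype block cannot be used between genotypes. Genes under about 1 CPM rest on few counts, and their changes had SEs of 0.46 to 0.66 on the log2 scale at 6 h.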

Other observations

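Several non-coding genes inside the HOX clusters averaged at least 1 CPM, all with spans that overlap HOX genes. HOXA10-AS, whose span overlaps HOXA9 and HOXA10, averaged 9.98 CPM over the 24 libraries. LOC107055285 and LOC124417425, inside the spans of HOXB3 and HOXB2, averaged 9.37 and 3.85 CPM. LOC121109556, which overlaps HOXA3, HOXA5, HOXA6 and HOXA7, averaged 1.80 CPM. LOC107052544, inside the span of HOXA11, averaged 1.06 CPM. The part of reads from HOX genes in these counts was not tested. At 6 h against 0 h none of these 5 was called by edgeR (n = 6 each), beside 5.05% of all genes. LOC107055285 differed by -0.37 on the log2 scale (SE 0.13, edgeR adjusted p = 0.0972), LOC107052544 by -0.72 (SE 0.29, adjusted p = 0.190) and HOXA10-AS by -0.31 (SE 0.14, adjusted p = 0.295). These 3 had an unadjusted p under 0.05, all lower, beside 6.61% of all genes. Of 8 miRNA genes inside the clusters, 4 had no counts in these poly(A)-enriched libraries and 4 had 9 to 41 counts over all libraries together.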
